A study of Mus musculus with 6 samples.

Results

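The genes described here encode proteins of DNA replication and DNA repair, chosen by symbol in the platform's probe annotation: the Mcm, Orc, Rfc, Gins, Xrcc and Brca families by number, the Fanc genes, symbols beginning with Rad50 to Rad59, Msh3 and Msh6, and Cdc6, Cdc45, Cdt1, Gmnn, Pcna, Exo1 and Blm. The rule found 62 genes among 21893 named genes on the array, and each was read from its probe with the highest mean. Transcripts were measured in neural progenitor cells (NPC), obtained by FACS for GFP at day 5 of neural differentiation in medium with NB27 and Neuro2, and in undifferentiated embryonic stem cells (ESC). Both groups came from the mouse line 46c of strain 129/Ola, in which GFP reports the neural gene Sox1, and each group had 3 arrays from biological replicates. All samples derive from 1 line, and the gate used for GFP is not stated.

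DNA replication starts where the origin recognition complex, with Cdc6 and Cdt1, loads the ring-shaped Mcm2 to Mcm7 helicase onto DNA. Cdc45 and the GINS complex turn that ring into the active helicase, and the clamp Pcna, opened and closed by the Rfc loader, holds the polymerases on the strand. Repair proteins act behind and beside the fork: Fanconi anaemia proteins at crosslinks, BRCA and Rad54 family proteins in homologous recombination, Xrcc proteins at single-strand breaks and in end joining, and Msh proteins at mismatches. Mouse ES cells divide fast with a short G1 phase, and early neural progenitors also divide.

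Promoter sequences are shown for 5 of the genes, as examples of called and uncalled members. Mcm6, Mcm3 and Gins3 were not called and Rfc5 was called lower in NPC. Rfc4 was called higher only in the test with the replicate block described below. Each sequence is the 250 bases before the RefSeq transcript start in GRCm38.p6, written 5′ to 3′ on the gene's strand. Capitals mark TTTCCCGC or TTTGGCGC, both E2F-type motifs, and CCAAT, the NF-Y motif, on either strand.
Mcm6, chr1:128359706-128359955, minus strand: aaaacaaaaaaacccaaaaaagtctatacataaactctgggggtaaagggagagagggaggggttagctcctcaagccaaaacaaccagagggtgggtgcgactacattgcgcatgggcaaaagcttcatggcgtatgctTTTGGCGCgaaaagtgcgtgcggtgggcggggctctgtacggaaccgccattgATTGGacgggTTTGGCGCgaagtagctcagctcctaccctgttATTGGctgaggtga
Mcm3, chr1:20820313-20820562, minus strand: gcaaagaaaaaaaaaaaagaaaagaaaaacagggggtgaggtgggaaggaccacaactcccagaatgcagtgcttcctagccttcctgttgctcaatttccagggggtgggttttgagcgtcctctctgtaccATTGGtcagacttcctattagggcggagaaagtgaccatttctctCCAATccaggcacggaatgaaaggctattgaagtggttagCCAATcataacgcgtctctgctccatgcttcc
Gins3, chr8:95633309-95633558, plus strand: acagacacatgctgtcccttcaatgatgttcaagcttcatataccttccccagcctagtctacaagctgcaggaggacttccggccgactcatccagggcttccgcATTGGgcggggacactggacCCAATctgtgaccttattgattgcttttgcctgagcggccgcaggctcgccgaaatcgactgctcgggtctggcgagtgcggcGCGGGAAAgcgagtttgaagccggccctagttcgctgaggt
Rfc5, chr5:117389024-117389273, minus strand: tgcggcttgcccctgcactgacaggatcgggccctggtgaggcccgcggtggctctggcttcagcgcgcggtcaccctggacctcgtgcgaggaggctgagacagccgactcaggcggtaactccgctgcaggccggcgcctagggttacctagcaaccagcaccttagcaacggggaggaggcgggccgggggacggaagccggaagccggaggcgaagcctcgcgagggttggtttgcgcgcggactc
Rfc4, chr16:23127731-23127980, minus strand: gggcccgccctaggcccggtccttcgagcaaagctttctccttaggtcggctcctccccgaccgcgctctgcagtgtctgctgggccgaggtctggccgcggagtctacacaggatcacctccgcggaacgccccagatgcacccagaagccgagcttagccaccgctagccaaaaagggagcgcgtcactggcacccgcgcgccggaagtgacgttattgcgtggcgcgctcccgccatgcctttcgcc

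Counting from the start to the first base of a match, the Mcm6 window held TTTGGCGC at -110 and -47 and an inverted CCAAT at -57 and -14. The Gins3 window held an inverted TTTCCCGC at -41 and CCAAT at -124 and, inverted, -144, and the Mcm3 window held CCAAT at -72 and -32 and, inverted, at -117. Neither Rfc window held any of the 3 motifs, which says only that these letters are not in these windows. Of the 62 genes, 50 had a promoter in the RefSeq table, and 10 of the 50 (20.0%) held an E2F-type motif in this window, against 1.51% of 27025 genes with a promoter and 1.3% of 32851 promoters. CCAAT was found for 32 of the 50 (64.0%), against 37.5% of genes and 33.8% of promoters. The 27025 are all genes of the RefSeq promoter table, not only those named on the array. A gene counted if any of its promoters held the motif, and Mcm7 also had a promoter without an E2F-type motif. Of members called in the test with the replicate block, CCAAT was found for Orc1, Orc2, Msh6, Mcm10, Fancm, Xrcc5 and Rad51ap1. It was not found for Cdt1, Fanci, Fancl, Orc5, Rad52, Rfc4 and Rfc5, so the 5 windows shown do not stand for all members. The 10 genes with an E2F-type motif were Brca2, Cdc6, Fancg, Gins3, Mcm5, Mcm6, Mcm7, Msh3, Orc3 and Xrcc6. None of the 10 was called between NPC and ESC in either test described below, where 20.6% and 35.7% of all genes and 4.84% and 25.8% of the 62 were called, and nothing is read from that count.

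Values are quantile-normalised log2 signals, so a difference of 1 is 2-fold. Each change is the NPC mean minus the ESC mean on that scale, with its SE (n = 3 arrays in either group), from limma fitted over all 21893 genes, and a call is a Benjamini-Hochberg adjusted p under 0.05. Marker genes followed the labels: 9 of 10 ES cell markers were lower and 6 of 10 neural progenitor markers higher in NPC, with Pou5f1 at 6.48, 6.54 and 6.98 in NPC against 14.45, 13.89 and 14.92 in ESC. The neural progenitor markers Zic1 and Msi1 went against the others, lower in all 3 same-numbered pairs; neither passed, and Zic1 was lower in the test with the replicate block described below (adjusted p = 0.0499). Markers of postmitotic neurons were also higher in NPC for 6 of 10 genes. Their summed signal, on the log2 scale, ran from 14.75 to 15.39 in NPC and from 13.08 to 14.05 in ESC, and no neuron marker read under 6 on all arrays. In RNA from mixed cells, fewer dividing cells and less transcript per cell cannot be told apart, and the part of neurons in the results below was not tested. Of 9 measured mesoderm and endoderm markers, 5 read under 6 on all arrays, and 2 were lower and 1 higher in NPC. Of 10 fibroblast markers 4 did so, and 2 were lower and 3 higher. Changes ran from -2.67 to 5.69 over the 9 mesoderm and endoderm markers and from -3.06 to 2.18 over the 10 fibroblast markers. The rise of 5.69 was larger than the median change of the neural progenitor markers (3.39).

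Few of the replication and repair genes were called between NPC and ESC. Of the 62 genes 3 passed, all lower in NPC: Rfc5, Cdt1 and Rad54b, or 4.84%, where 20.6% of all genes passed (9.54% lower and 11.1% higher). None of the 62 was called higher. The genes were bright: 58 of 62 (93.5%) had a mean of at least 6 and 45 (72.6%) of at least 9, against 57.4% and 32.8% of all genes. The median change of the 62 was -0.19 with a range of -2.10 to 0.81, and the median size of change, whatever its sign, was 0.36, against 0.52 over all genes. Orc1, Orc2, Orc5, Msh6, Xrcc5, Rfc5 and Fancd2os differed by at least 2-fold, all lower in NPC (11.3%, against 13.2% of all genes), and none was higher by that much, against 15.5% of all genes. Of the 7 only Rfc5 passed without the block, and Fancd2os, a dim gene with pairs of both signs, turned to 0.16 when values under 6 were set to 6. The 95% interval of the change lay wholly within 2-fold either way for 21 of the 62 (33.9%, against 26.7% of all genes); for the other 41 genes it reached past 2-fold in at least 1 direction.

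Over the 62 genes, same-numbered arrays of the groups deviated together for replicates 2 and 3 (r = 0.97 and 0.91). They did so only weakly for replicate 1 (r = 0.25), whose NPC array had r = 0.68 with ESC replicate 2. The test was also run with the replicate number as a block, which compares NPC with ESC within each number. Calls made only with the block rest on this pairing, which the sample titles do not state and which is not clear for number 1. With the block 13 of the 62 genes were lower (21.0%, against 16.7% of all genes) and 3 were higher (4.84%, against 18.9%), so 25.8% were called in either direction, against 35.7% of all genes. The 13 were Orc1, Orc2, Orc5, Cdt1, Mcm10, Rfc5, Fanci, Fancl, Fancm, Rad52, Rad54b, Xrcc5 and Msh6, and the 3 were Rfc4, Rad51ap1 and Rad54l2. The interval lay within 2-fold for 39 of the 62 with the block (62.9%, against 43.3% of all genes). In 26 genes NPC was below ESC in all 3 same-numbered pairs, and in 13 it was above in all 3 (41.9% and 21.0%, against 32.1% and 33.6% of all genes).

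**Figure D1:**
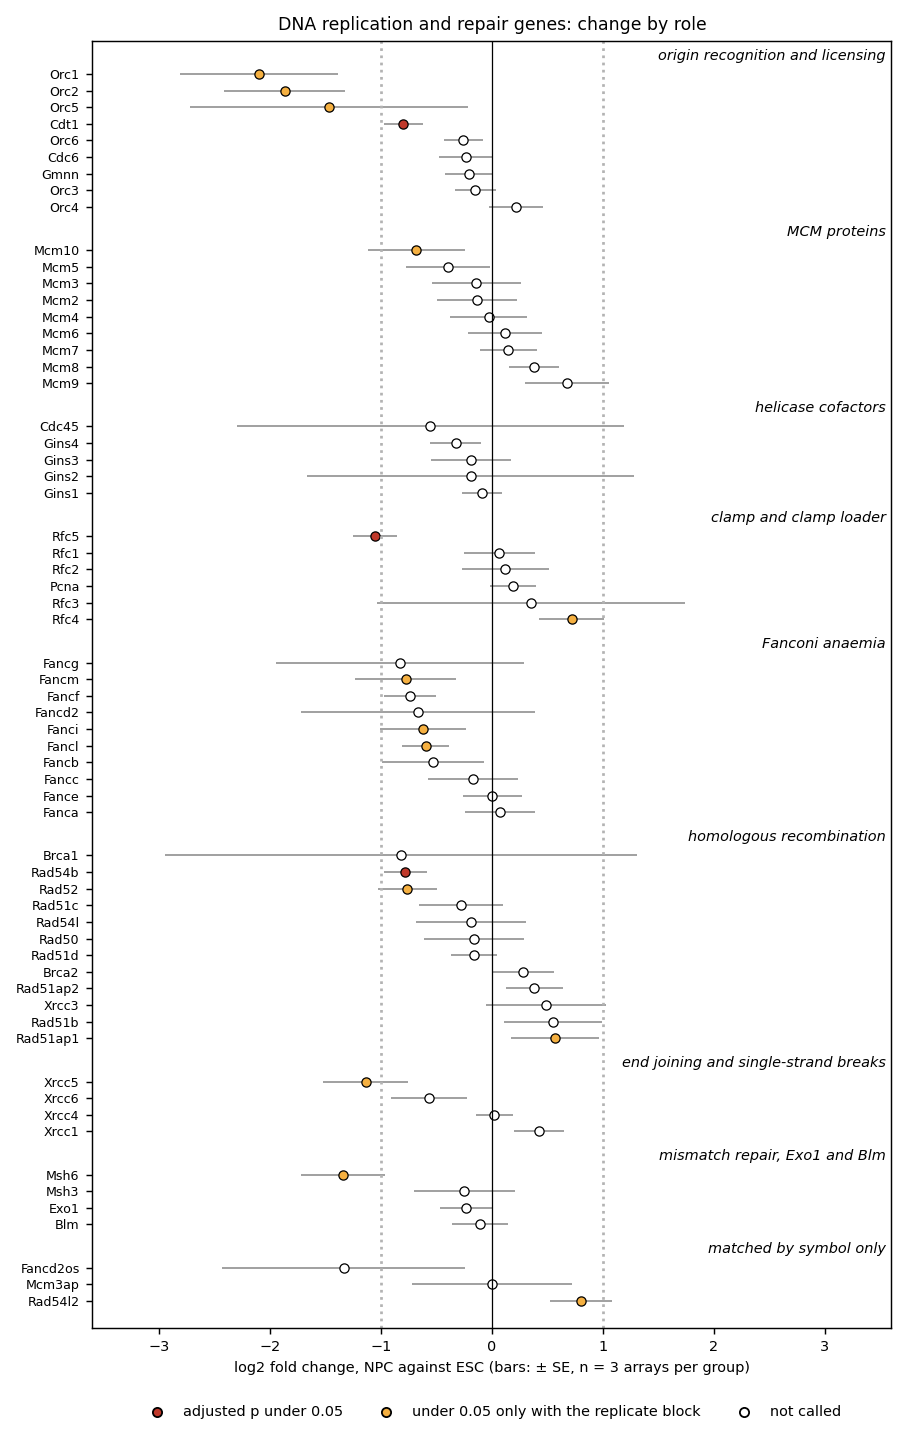
Log2 fold change of NPC against ESC for the 62 genes, grouped by role (horizontal axis, log2 units; bars are ± SE, n = 3 arrays per group; dotted lines mark 2-fold). Red points passed the test, orange points passed only with the replicate block and white points were not called; the most negative changes are those of Orc1 (-2.10) and Orc2 (-1.87), and most Mcm genes sit near 0.

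The genes of the origin recognition complex gave the widest differences. Orc1, the largest subunit, read 7.60, 6.95 and 8.83 in NPC against 10.30, 8.65 and 10.72 in ESC. One NPC array, replicate 3, lay above ESC replicate 2, so the groups overlap, yet every NPC array was below the ESC array of its own number. The change of -2.10 ± 0.71 did not pass (adjusted p = 0.0986) and passed with the block (-2.10 ± 0.25, adjusted p = 0.00617).

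Orc2, a core subunit, read 8.37, 7.89 and 9.34 in NPC against 10.40, 9.60 and 11.21 in ESC. The groups did not overlap, and the change was -1.87 ± 0.54 (adjusted p = 0.0641, and 0.00222 with the block). Orc5, an ATPase-fold subunit, read 8.05, 6.99 and 10.40 in NPC against 10.29, 7.87 and 11.69 in ESC. Replicate 3 was the high array and replicate 2 the low array of both groups, so Orc5 overlapped between the groups although each pair differed the same way, by -2.24, -0.89 and -1.28 (change -1.47 ± 1.25, adjusted p = 0.509, and 0.0276 with the block).

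The remaining subunits differed less. Orc3, Orc4 and Orc6 had changes of -0.15 ± 0.19, 0.22 ± 0.25 and -0.26 ± 0.18, none of which passed in either test. Their 95% intervals lay inside 2-fold, that of Orc6 from -0.69 to 0.17. Second probes of Orc3 and Orc4 had the opposite sign (0.62 ± 0.24 and -1.05 ± 1.92) and were not called. With the block Orc1, Orc2 and Orc5 were called lower and the other 3 genes were not, a difference between subunits that was not itself tested.

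Of the licensing factors, only Cdt1 passed. Cdt1, which brings the helicase ring to the origin complex, read 12.55, 12.73 and 12.41 in NPC against 13.34, 13.37 and 13.37 in ESC, and the change was -0.80 ± 0.18 (adjusted p = 0.0254, and 0.0183 with the block). The ESC arrays were close together (SD 0.02) and all NPC arrays were below them. Gmnn, which encodes geminin, the inhibitor that binds Cdt1, read 11.63, 11.60 and 11.40 in NPC against 11.56, 12.06 and 11.64 in ESC, and the groups overlapped (-0.21 ± 0.21, adjusted p = 0.592). A second, dimmer probe of Gmnn gave the opposite sign and was called, at 7.45 in NPC and 5.95 in ESC on average (1.5 ± 0.21, adjusted p = 0.00687 over all 30626 named probes), so the direction of Gmnn depends on the probe. Cdc6, an ATPase that works with Cdt1, was not called at either probe, and its probes had opposite signs (-0.23 ± 0.24 for the one used and 1.18 ± 0.48 for the other).

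The 6 genes of the Mcm2 to Mcm7 ring had small estimated changes, from -0.39 to 0.15 with a median of -0.08. In either test 0 of 6 passed, where 20.6% of all genes passed without the block and 35.7% with it. Mcm2 read 13.13, 13.17 and 12.25 in NPC against 13.18, 13.29 and 12.48 in ESC. Mcm6 read 14.56, 14.73 and 13.76 in NPC against 14.23, 14.57 and 13.89 in ESC. In both genes replicate 3 was the low array of each group, by more than the groups differed from each other.

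Mcm3, Mcm4 and Mcm7 had changes of -0.14 ± 0.40, -0.03 ± 0.35 and 0.15 ± 0.26, and Mcm5 had -0.39 ± 0.38. Without the block the intervals of Mcm2 (-1.02 to 0.76), Mcm3 (-1.13 to 0.85) and Mcm5 (-1.32 to 0.53) reached past 2-fold lower in NPC. A fall of that size was therefore not excluded for these genes in that test. The intervals of Mcm4, Mcm6 and Mcm7 lay within 2-fold. With the block the interval of Mcm4 ran from -0.38 to 0.33 and that of Mcm7 from -0.22 to 0.52, while that of Mcm5 ran from -0.82 to 0.03. Mcm3 had 2 probes, and they gave -0.14 and -0.15. Centring arrays on housekeeping genes, which shifts all genes alike, gave a median of -0.21 for the 6 and -0.12 for all genes.

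The other Mcm genes have separate roles. Mcm10, which helps the helicase fire, read 12.19, 12.42 and 11.24 in NPC against 12.66, 13.20 and 12.02 in ESC, lower within each pair (-0.68 ± 0.44, adjusted p = 0.373, and 0.0296 with the block). Mcm8 and Mcm9, which form a helicase of recombination, had changes of 0.38 ± 0.23 and 0.68 ± 0.38 and passed in neither test (adjusted p = 0.181 and 0.0684 with the block).

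The helicase cofactors were not called in either test, with 0 of 5 genes (20.6% of all genes without the block and 35.7% with it). Gins1 read 11.56, 11.58 and 11.54 in NPC against 11.48, 11.65 and 11.82 in ESC, a difference of -0.09 ± 0.18. Gins3 and Gins4 differed by -0.19 ± 0.36 and -0.33 ± 0.23. The arrays of Cdc45 and Gins2 differed from each other far more than the groups did, in the same order of replicate numbers in NPC and ESC. Cdc45 read 6.10, 6.03 and 10.52 in NPC against 7.14, 6.14 and 11.03 in ESC, and Gins2 read 9.35, 8.10 and 12.29 in NPC against 10.79, 7.64 and 11.89 in ESC. Cdc45 was lower in all 3 pairs, at -0.55 ± 0.23 with the block (adjusted p = 0.136), while Gins2 had pairs of both signs and an interval of -1.43 to 1.05 with the block.

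Within the clamp loader, Rfc5 was called lower in NPC and Rfc4 was called higher only with the block. A difference between the subunits was not itself tested. Rfc5, a small subunit of the loader, read 12.94, 12.92 and 12.84 in NPC against 13.78, 14.23 and 13.85 in ESC. The groups were well apart and the change was -1.06 ± 0.20 (adjusted p = 0.0141, and 0.0118 with the block). A dimmer second probe gave -0.69 ± 0.19 (adjusted p = 0.0629 over all named probes). Rfc4, another small subunit, read 13.67, 13.88 and 13.07 in NPC against 12.80, 13.14 and 12.52 in ESC, higher in 3 of 3 pairs with overlap between the groups (0.72 ± 0.29, adjusted p = 0.162, and 0.0242 with the block).

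The second probe of Rfc4 gave -0.72 ± 1.47 with no call, and Rfc4 was not called when its probes were averaged, so its higher level rests on 1 probe. Rfc1, the large subunit, and Rfc2 differed by 0.07 ± 0.32 and 0.12 ± 0.39, and Rfc3 by 0.35 ± 1.39 with arrays from 8.15 to 11.94 in NPC and from 7.14 to 11.36 in ESC. Pcna, the sliding clamp, read 14.83, 14.77 and 14.45 in NPC against 14.43, 14.70 and 14.36 in ESC. Its groups overlapped, and the interval of its change of 0.19 ± 0.20 ran from -0.31 to 0.69.

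**Figure D2:**
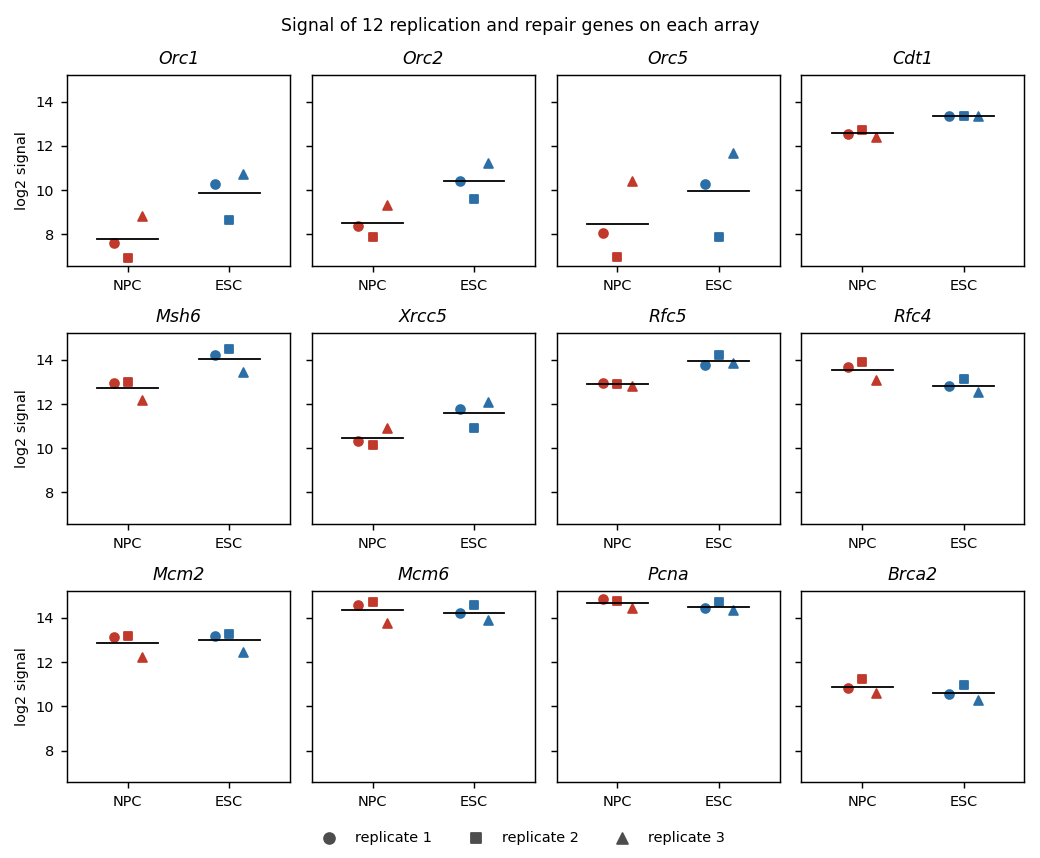
Log2 signal of 12 of the genes on each array (vertical axis; NPC in red on the left and ESC in blue on the right of each panel; the marker shape gives the replicate number and the line the group mean). Cdt1, Msh6, Xrcc5, Rfc5 and Orc2 show no overlap between groups, while Mcm2, Mcm6, Pcna and Brca2 overlap. The order of the replicate numbers is alike in both groups for all genes shown except Cdt1, Rfc5 and Pcna.

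Of the Fanconi anaemia genes, 0 of 10 passed (20.6% of all genes), and with the block 3 were lower and 0 higher (16.7% and 18.9% of all genes). Fancl, the ubiquitin ligase of the pathway, read 11.01, 10.96 and 11.31 in NPC against 11.47, 11.67 and 11.92 in ESC with no overlap (-0.59 ± 0.21, adjusted p = 0.115, and 0.0365 with the block), and its second probe gave -0.47 ± 0.30. Fanci, a partner of Fancd2 in the clamp that the ligase modifies, read 11.20, 11.46 and 10.42 in NPC against 11.69, 12.13 and 11.13 in ESC. It was lower in each pair (-0.62 ± 0.39, adjusted p = 0.353, and 0.0318 with the block), whereas a dim probe gave 0.17 ± 0.29.

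Fancm, the translocase that anchors the core complex, read 7.79, 7.05 and 7.93 in NPC against 8.88, 7.49 and 8.73 in ESC (-0.78 ± 0.45, adjusted p = 0.324, and 0.0374 with the block). The core complex genes Fanca, Fancc and Fance had changes of 0.07 ± 0.32, -0.17 ± 0.40 and 0.01 ± 0.27. Their second probes had the opposite sign, at -0.62 ± 0.29, 1.44 ± 0.43 and -0.24 ± 1.02, and none was called (adjusted p = 0.0792 for Fancc over all named probes). Over all members, 10 of 20 such other probes had the sign opposite to the probe used, 8 of the 20 had a mean under 6, and 2 were called. Fancf and Fancb, also of the core complex, stood at -0.74 ± 0.24 and -0.53 ± 0.46 and passed in neither test (adjusted p = 0.0809 and 0.0562 with the block). Fancd2, which the ligase modifies, read 6.59, 5.84 and 8.79 in NPC against 8.14, 6.03 and 9.06 in ESC. Fancg, a core gene with a mean under 6, averaged 4.95 ± 1.85 in NPC and 5.78 ± 1.41 in ESC (SD, n = 3 each). Both had replicate 3 as the high array of each group and neither was called. The changes of the 10 genes had a median of -0.61, and -0.74 when arrays were centred on housekeeping genes.

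Among the recombination genes, 1 of 12 passed (20.6% of all genes), and with the block 2 were lower and 1 higher (16.7% and 18.9% of all genes). Rad54b, a motor protein of homologous recombination, read 9.59, 9.68 and 9.67 in NPC against 10.66, 10.40 and 10.22 in ESC, and all NPC arrays lay below all ESC arrays (-0.78 ± 0.19, adjusted p = 0.0374, and 0.0289 with the block). A dim second probe gave -1.37 ± 1.34 with no call. Rad52, known in yeast for its part in homologous recombination, read 8.27, 8.12 and 8.48 in NPC against 9.09, 8.63 and 9.45 in ESC, also with no overlap (-0.76 ± 0.27, adjusted p = 0.109, and 0.0274 with the block).

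Rad51ap1, a DNA-binding recombination factor, went the other way. It read 11.79, 11.98 and 10.86 in NPC against 11.04, 11.42 and 10.46 in ESC, higher in each pair (0.57 ± 0.40, adjusted p = 0.419, and 0.0473 with the block). Brca2, a mediator of homologous recombination, read 10.83, 11.25 and 10.60 in NPC against 10.55, 10.98 and 10.30 in ESC. Its pairs differed by 0.28, 0.27 and 0.30, all in 1 direction, and it passed in neither test (0.28 ± 0.28, adjusted p = 0.571, and 0.167 with the block).

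The recombination genes Rad51b, Rad51c, Rad51d and Xrcc3 had changes of 0.55 ± 0.44, -0.28 ± 0.38, -0.16 ± 0.20 and 0.49 ± 0.54, and none passed. Rad51d depended on the probe, as its dim second probe averaged 5.59 in NPC and 3.44 in ESC and was called higher (2.14 ± 0.30, adjusted p = 0.00622 over all named probes). Rad50, a subunit of the end-processing complex, and Rad54l differed by -0.16 ± 0.45 and -0.19 ± 0.50. Brca1, the ubiquitin ligase of the same pathway, read 1.75, 1.42 and 7.13 in NPC against 3.76, 1.44 and 7.57 in ESC, and the SE of 2.13 was larger than the change of -0.82. Rad51ap2, whose mean was under 6, read 4.94, 4.67 and 4.19 in NPC against 4.37, 4.30 and 3.98 in ESC and was not called.

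Of the 4 Xrcc genes of end joining and single-strand break repair, none passed (20.6% of all genes). With the block 1 was lower and 0 higher (16.7% and 18.9% of all genes). Xrcc5, which encodes Ku80 of the DNA end-binding heterodimer, read 10.31, 10.13 and 10.91 in NPC against 11.78, 10.93 and 12.07 in ESC. The highest NPC array lay just under the lowest ESC array, and the change was -1.14 ± 0.38 (adjusted p = 0.0945, and 0.0144 with the block). Xrcc6, which encodes its partner Ku70, was lower in 3 of 3 pairs and passed in neither test (-0.56 ± 0.34, adjusted p = 0.341, and 0.053 with the block). Xrcc4, a cofactor of the end-joining ligase, read 8.74, 8.60 and 8.58 in NPC against 8.57, 8.66 and 8.61 in ESC, with an interval of -0.38 to 0.43. Xrcc1, the scaffold of single-strand break repair, was at 0.43 ± 0.23 (adjusted p = 0.273, and 0.0865 with the block).

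Msh6, which recognises single mismatches, read 12.94, 13.01 and 12.18 in NPC against 14.23, 14.48 and 13.43 in ESC. The groups did not overlap and the pairs differed by -1.29, -1.48 and -1.25 (change -1.34 ± 0.38, adjusted p = 0.0571, and 0.00425 with the block). Msh3, which recognises larger loops, was at -0.25 ± 0.45, and its 2 dim probes gave -1.52 and -1.41 with no call. Exo1, the exonuclease of mismatch repair, and Blm, a helicase that undoes recombination intermediates, differed by -0.24 ± 0.23 and -0.11 ± 0.25 with no call.

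A further 3 genes matched the rule by symbol only. Rad54l2, an SNF2-type ATPase also called Arip4, read 10.96, 10.99 and 10.60 in NPC against 9.98, 10.50 and 9.65 in ESC, and it was the 1 member whose NPC arrays all lay above its ESC arrays (1.61% of the 62, against 19.6% of all genes). Its change was 0.81 ± 0.28 (adjusted p = 0.106, and 0.0285 with the block). Mcm3ap, which encodes the mRNA export factor GANP, was at 0.00 ± 0.72. Fancd2os, a transcript from the strand opposite Fancd2, read 3.09, 4.31 and 7.46 in NPC against 6.57, 6.41 and 5.88 in ESC and was not called.

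The spread between replicate numbers was wide in part of the group and ran alike in NPC and ESC. In 17 of the 62 genes replicate 3 was the highest array of both groups (27.4%, against 20.4% of all genes). Among them were Orc1, Orc2, Orc5, Cdc45, Gins2, Rfc3, Brca1 and Fancd2. Some members had a probe of this kind and another that was not. The former gave the more negative change for Rfc4 (-0.72 against 0.72), Orc4 (-1.05 against 0.22) and Rad50 (-0.95 against -0.16). It did so too for Msh3, Rad54b, Fance, Mcm9 and Fancl, while Rad51b went the other way (0.55 against 0.16). None of these probes with replicate 3 highest was called. What this means for Orc1, Orc2 and Orc5 was not tested. In 31 of the 62 replicate 3 was the lowest array of both groups (50.0%, against 39.1%), among them Mcm2, Mcm3, Mcm4, Mcm5 and Mcm6. The arrays of Brca1, Cdc45, Fancd2, Fancg, Gins2, Orc5 and Rfc3 spanned over 2 log2 units in each group (11.3%, against 6.04% of all genes). For those 7 genes the SE without the block ran from 1.05 to 2.13, and Orc5 alone of them passed with the block. Across the 62 genes the deviations of same-numbered NPC and ESC arrays from their group means correlated with r = 0.25, 0.97 and 0.91 for replicates 1, 2 and 3, given as a description of genes that share arrays.

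**Figure D3:**
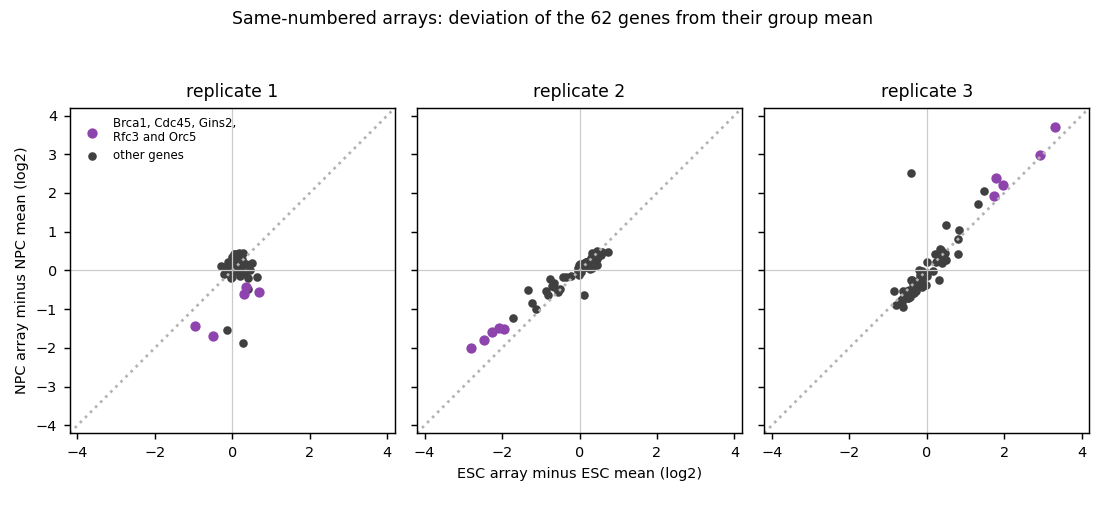
Deviation of each of the 62 genes from its group mean on the NPC array (vertical axis, log2) and on the ESC array of the same number (horizontal axis, log2), 1 panel per replicate number, with the line of equal deviation dotted. Purple points are Brca1, Cdc45, Gins2, Rfc3 and Orc5, which were low on replicate 2 and high on replicate 3 in both groups; the point far above the line for replicate 3 is Fancd2os.

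Other genes of the same pathways gave the setting. A further 43 replication genes were on the array (polymerase, RPA, flap and ligase, checkpoint, nucleotide supply and chromatin assembly genes). Of the 43, 2 were higher and 0 lower in NPC (11.1% and 9.54% of all genes). With the block 6 were higher and 0 lower (18.9% and 16.7% of all genes). Clspn, the adaptor that activates the replication checkpoint kinase, read 9.05, 8.74 and 9.20 in NPC against 8.11, 7.75 and 7.90 in ESC (1.08 ± 0.21, adjusted p = 0.0167). Pole3, a histone-fold subunit of polymerase epsilon, rose by 1.42 ± 0.34 (adjusted p = 0.0353). Rrm2, the small subunit of ribonucleotide reductase, and Tipin, a fork protection protein, were not called (0.51 ± 0.25 and -0.49 ± 0.20).

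Of 59 further repair and checkpoint genes, 3 were higher and 2 lower (11.1% and 9.54% of all genes). With the block 8 were higher and 5 lower (18.9% and 16.7% of all genes). Neil3, a glycosylase for oxidised bases, read 9.26, 9.41 and 9.49 in NPC against 7.56, 7.17 and 7.73 in ESC (1.90 ± 0.22, adjusted p = 0.00229). Xpa, a nucleotide excision factor, rose by 1.25 ± 0.18 (adjusted p = 0.00498), and Mdc1, a scaffold at double-strand breaks, by 0.77 ± 0.17 (adjusted p = 0.0259). Mgmt, which removes alkyl groups from guanine, read 8.35, 8.63 and 8.40 in NPC against 10.05, 10.26 and 10.09 in ESC and fell by 1.67 ± 0.18 on the log2 scale (adjusted p = 0.00191). Rad17, which loads the checkpoint clamp, fell by 0.77 ± 0.18 (adjusted p = 0.0319). H2ax and Ddb1 were not called, with changes of 0.07 ± 0.17 and 0.08 ± 0.41.

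Of 19 proliferation markers measured, 2 were higher and 1 was lower in NPC (11.1% and 9.54% of all genes), and with the block 5 and 1 (18.9% and 16.7% of all genes). Their median change was 0.20, with 12 positive and 7 negative, and 10 of 19 were above ESC in all 3 same-numbered pairs and 3 below (33.6% and 32.1% of all genes). The part of this in the members' values was not tested. Mki67, a marker of cycling cells, read 13.64, 13.73 and 13.01 in NPC against 12.42, 12.37 and 11.62 in ESC (1.32 ± 0.32, adjusted p = 0.0367). Aurkb, a mitotic kinase, rose by 1.34 ± 0.33 (adjusted p = 0.0383), and Ccne1, the cyclin of entry into S phase, fell by 1.41 ± 0.34 (adjusted p = 0.036). Cdc20 and Birc5 were not called, at -0.02 ± 0.28 and -0.03 ± 0.20. The summed signal of the 19 ran from 16.60 to 17.11 in NPC and from 16.61 to 17.16 in ESC.

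**Figure D4:**
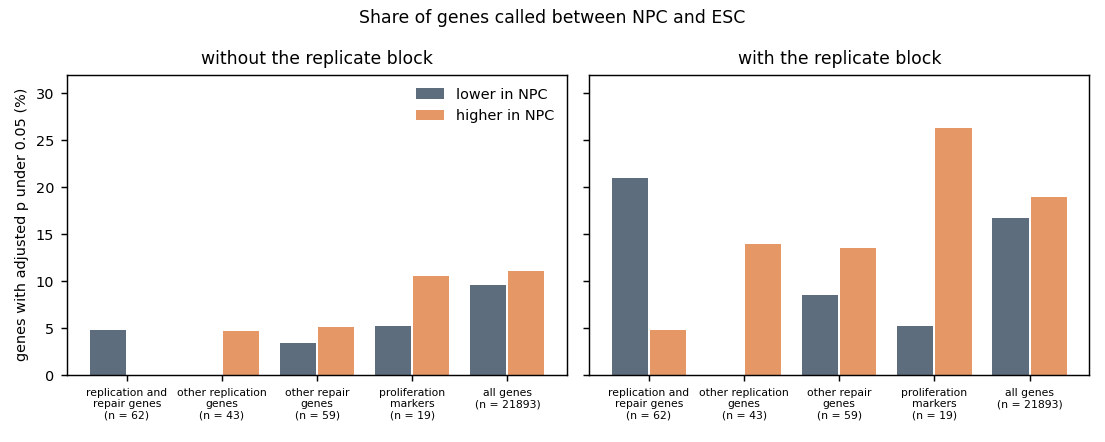
Percent of genes with an adjusted p under 0.05 that were lower (grey) or higher (orange) in NPC, for the 62 replication and repair genes, the other genes of those pathways, proliferation markers and all genes tested, without the replicate block on the left and with it on the right. Without the block 3 of the 62 genes are lower and 0 higher; with it 13 are lower and 3 higher.

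Of the 10 called genes named from the other lists, Neil3, Xpa and Mgmt kept their calls in all 6 fits that left out 1 array. Clspn and Pole3 kept theirs in 2 of 6, Mki67, Aurkb and Ccne1 in 1 of 6, and Mdc1 and Rad17 in 0 of 6. With arrays centred on housekeeping genes, Neil3 and Mgmt were still called (adjusted p = 0.0102 and 0.0184) and Xpa was not (adjusted p = 0.0926).

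The 3 calls made without the block were narrow. Rfc5 kept its call in 4 of the 6 fits that left out 1 array (adjusted p = 0.0344 to 0.0552) and lost it without NPC replicate 1 or NPC replicate 2. Cdt1 kept its call in 1 of 6 fits (adjusted p = 0.0497 to 0.103), losing it without any array but NPC replicate 3, and Rad54b in 0 of 6 (adjusted p = 0.0525 to 0.148). With arrays centred on housekeeping genes all 3 calls were lost (adjusted p = 0.11, 0.194 and 0.2 for Rfc5, Cdt1 and Rad54b). This was so although the changes were larger in size, at -1.18, -0.93 and -0.91. The all-gene median moved from 0.01 to -0.12, and Orc1 and Orc2 were called lower in place of the 3. The 13 housekeeping genes themselves changed by -0.93 to 1.75, and 1 of them was called higher without the block. Their mean on single arrays lay -0.34 to 0.43 from their mean over all arrays.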

How the data were processed

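Total RNA of 3 NPC and 3 ESC samples went through 1 amplification, Cy3 dye coupling and hybridisation to Agilent arrays in 1 colour, as the labels' protocols state. The deposited log2 values cover 55681 probes on 6 arrays and run from 1.03 to 16.18. Once sorted, all columns hold the same values, which is what quantile normalisation by the authors leaves. Per the submitters' processing notes, limma was used; the sources used here do not give background correction, filters or log base, and base 2 was taken from the range. The number of arrays limits the precision.

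Probes were named through the platform annotation (30626 with 1 symbol, 0 with several, 25055 unnamed here). The probe with the highest mean stood for a gene; 19 of the 62 genes had more than 1. The comparison, two-sided and without covariates, used lmFit and eBayes of limma (version 3.58.1, R version 4.3.3) over 21893 genes. It was tested on simulated data built with a replicate effect shared by same-numbered arrays. That simulation cannot decide whether the arrays pair. Members and lists were chosen with earlier results of these data known. Any member may be named. Of the other pathway lists and the proliferation list, the 4 largest called rises, the 4 largest called falls and the 2 genes of highest mean are named. The replicate numbers come from the sample titles; over all genes, deviations of same-numbered arrays correlated with r = 0.19, 0.72 and 0.77, so they were taken to pair the samples. The pairing is not clear for number 1, since the first NPC array had r = 0.40 with the second ESC array. Promoters were matched by gene ID and motifs searched in the 250 bases before the start. Alternatives were the replicate block, the mean of all probes, a floor of 6, a filter at a mean of 6, centring on 13 housekeeping genes, eBayes with trend and robust, and leaving out each array.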

Additional observations from a re-analysis of the deposited data

How the results depend on the processing

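No called member changed sign under any setting. Rad51d, not called and negative as reported, was called higher when its probes were averaged (0.99, adjusted p = 0.0349), since its dim second probe then counts. The replicate block gave 13 members lower and 3 higher, 6 and 0 other replication genes higher and lower, 8 and 5 other repair genes higher and lower, and 4147 and 3660 of all genes higher and lower. Of the 4512 genes called without the block, 4497 were called with it, and 3310 more were called with the block alone. The mean of all probes gave 1 member and 1 other replication gene higher. Rad54b lost its call in that setting (adjusted p = 0.34), which left Cdt1 and Rfc5 called lower. With values under 6 set to 6, 1527 of all genes were higher and 1297 lower, and 1 other replication gene was higher. With genes kept at a mean of at least 6, 5 members (58 of 62 kept) and 1380 of all genes were lower. Centring on housekeeping genes gave a member median of -0.32, 1444 of all genes higher, 0 other replication genes higher and 1 other repair gene higher. Leaving out 1 array gave 0 to 4 members lower, a member median of -0.24 to -0.10, 1475 to 2644 of all genes higher and 1289 to 1923 lower, 0 to 3 other replication genes higher and 0 to 1 lower, and 1 to 2 other repair genes lower. The 0 came without NPC replicate 1 and without NPC replicate 2, 1 member, Rfc5, was left without ESC replicate 1, and the 4 were Orc1, Orc2, Rfc5 and Xrcc5 without ESC replicate 2 and Cdt1, Fancd2os, Orc2 and Rfc5 without NPC replicate 3. Other counts of these lists stayed within 1.5 times, and sign changes among uncalled members (up to 11, without NPC replicate 3) were not counted as calls. Why the settings differ was not tested, beyond the fewer genes or arrays that some of them use. Signal over background is unknown, and 4 members had a mean under 6.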
